A study of Mus musculus with 2 samples.

Results

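The serpins are a superfamily of proteins, most of which inhibit proteases. The members described here are the array's non-control probes whose gene name begins with Serpin, followed by a clade letter from a to i and a digit. This rule found 59 genes of 31827 gene names, represented by 75 probes of 39429 and 84 spots of 43020. They comprised 22 genes of clade A, 26 of clade B and 11 of clades C to I.

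Total liver RNA from C57BL/6 mice was labelled with Cy3 and hybridised to 1-colour Agilent arrays. One group was wild-type, with 1 array. The other carried Alb-Cre;CAG-floxed neo-Snail, also with 1 array, and was described in the series title as a model of enforced Snail expression in hepatocytes, with steatohepatitis and liver tumours. In this kind of model the albumin promoter drives Cre in hepatocytes, and Cre removes a neo cassette that separates the ubiquitous CAG promoter from the Snail sequence. The genotype alone distinguished the groups in the labels, which gave no sex, age, diet, tumour status or number of animals behind each RNA. With 1 array per group there was no replicate check, so no p-value was computed and every difference below is one between 2 libraries, not between genotypes.

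An inhibitory serpin presents a flexible reactive loop to a target protease, is cleaved, and traps the protease in a covalent complex as its fold snaps shut. Hepatocytes secrete most plasma serpins, among them alpha-1-antitrypsin (the Serpina1 genes), antithrombin (Serpinc1) and C1 inhibitor (Serping1), so the liver sets much of the plasma's control over coagulation, complement and leukocyte proteases. Clade B serpins lack a classical signal peptide and act mostly inside cells, and a few serpins are not inhibitors, such as the hormone carriers Serpina6 and Serpina7 and the collagen chaperone Serpinh1. In mice the Serpina1 and Serpina3 genes have been duplicated many times, which gives families of close copies.

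Close copies matter for what a probe can measure, so pieces of the 60-base probes are shown where it could decide between relatives. Probes of Serpina1a and Serpina1c overlapped over 51 bases with 1 mismatch. The 30-base stretches below, 5′ to 3′, hold that mismatch in capitals.
Serpina1a: taaAatgtcatccttccttctgaattgggt
Serpina1c: taaGatgtcatccttccttctgaattgggt
The probe of Serpina1c lies at chr12:105133165-105133224 and that of Serpina1a at chr12:105091819-105091878, both on the minus strand of mm9, the build of the arrays' annotation. The file's accessions for the Serpina1c probe covered Serpina1a, Serpina1b, Serpina1c and Serpina1e, and those of 1 Serpina1d probe covered Serpina1b and Serpina1d. Values of Serpina1 genes are therefore uncertain as values of single genes. Aligned with gaps, the probes of Serpina1c and Serpina1e paired over 58 bases, of which 56 were identical, with 2 mismatches and 1 unpaired base. The next stretches show 1 of the mismatches and the unpaired base, which ends the Serpina1e stretch, in capitals.
Serpina1c: aTgtcatccttccttctgaattgggttcct
Serpina1e: aAgtcatccttccttctgaattgggttccT
Serpinb6a and Serpinb6c, neighbours on chromosome 13, had probes with 4 mismatches in 59 bases, all capitals below.
Serpinb6a: tgcaatgGcaATtatgaaataaagggcttT
Serpinb6c: tgcaatgAcaGCtatgaaataaagggcttA
Serpina3h had 2 probes that did not give the same picture. Their first 30 bases are shown in the order of their positions, chr12:105491733-105491792 and then chr12:105492556-105492615 on the plus strand.
Serpina3h, first probe: gctgctgccacaggggtcaaattaattcta
Serpina3h, second probe: ccttcatcacccaaattgaaagggcaggag
The accessions of the second probe named Serpina3f, and those of the first probe matched no RefSeq gene. The probe of Serpina3n, the gene with the largest difference, lies at chr12:105651918-105651977 on the plus strand and begins as follows.
Serpina3n: ttggcatgcctggattagatagtgactaac
Exon and UTR annotation of these positions was not used here.

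Both libraries carried markers of the labelled tissue: all 9 hepatocyte markers on the array were well above background on both arrays. All 9 were lower in the library labelled Snail, with a median log2 difference of -0.63, and the range ran from Ass1 (-0.08) to Apoa1 (-3.04). These markers were not followed under other scalings. Because the tissue is bulk liver, fewer cells of a type and less RNA per cell cannot be told apart. The endogenous Snai1 probe read 23.2 in the wild-type library and 22.3 in the library labelled Snail, a log2 difference of -0.44. Whether that probe can detect the transgene's transcript is not given in the sources used here, so it does not check the label. The Y-linked genes Ddx3y, Eif2s3y, Kdm5d and Uty were not well above background on either array, and Xist read 237 and 348. On the arrays, 50.7% of wild-type and 54.0% of Snail-labelled spots were well above background, and no non-control spot was saturated.

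Across the family, the secreted clade A serpins were mostly lower and the chromosome 13 clade B serpins mostly higher in the library labelled Snail. A gene counted as measured when a probe was well above background on both arrays, which held for 30 of the 59 genes. Signals are printed as deposited, averaged over a gene's probes on the log2 scale. They were not scaled between arrays, and the 75th percentile of signals was higher on the array labelled Snail (302.1 against 232.7). Log2 differences and folds are Snail minus wild-type after each array's 75th percentile was set to 0. Of the 30 measured genes, 9 were at least 2-fold lower, against 979 of 15448 genes, or 6.34%, on the whole array. Another 5 were at least 2-fold higher, against 613 of 15448 genes, or 3.97%. Together these 14 genes were at least 2-fold apart, against 10.3% of all measured genes. The median log2 difference of the measured serpins was -0.56 and that of all measured genes was -0.03, with 20 serpins below 0 and 10 above. Repeated spots of the same probe gave a log2 difference with a median SD of 0.19 for signals under 100, 0.07 from 100 to 1000 and 0.04 above 1000. That spread is technical and says nothing of the spread between mice.

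**Figure D1:**
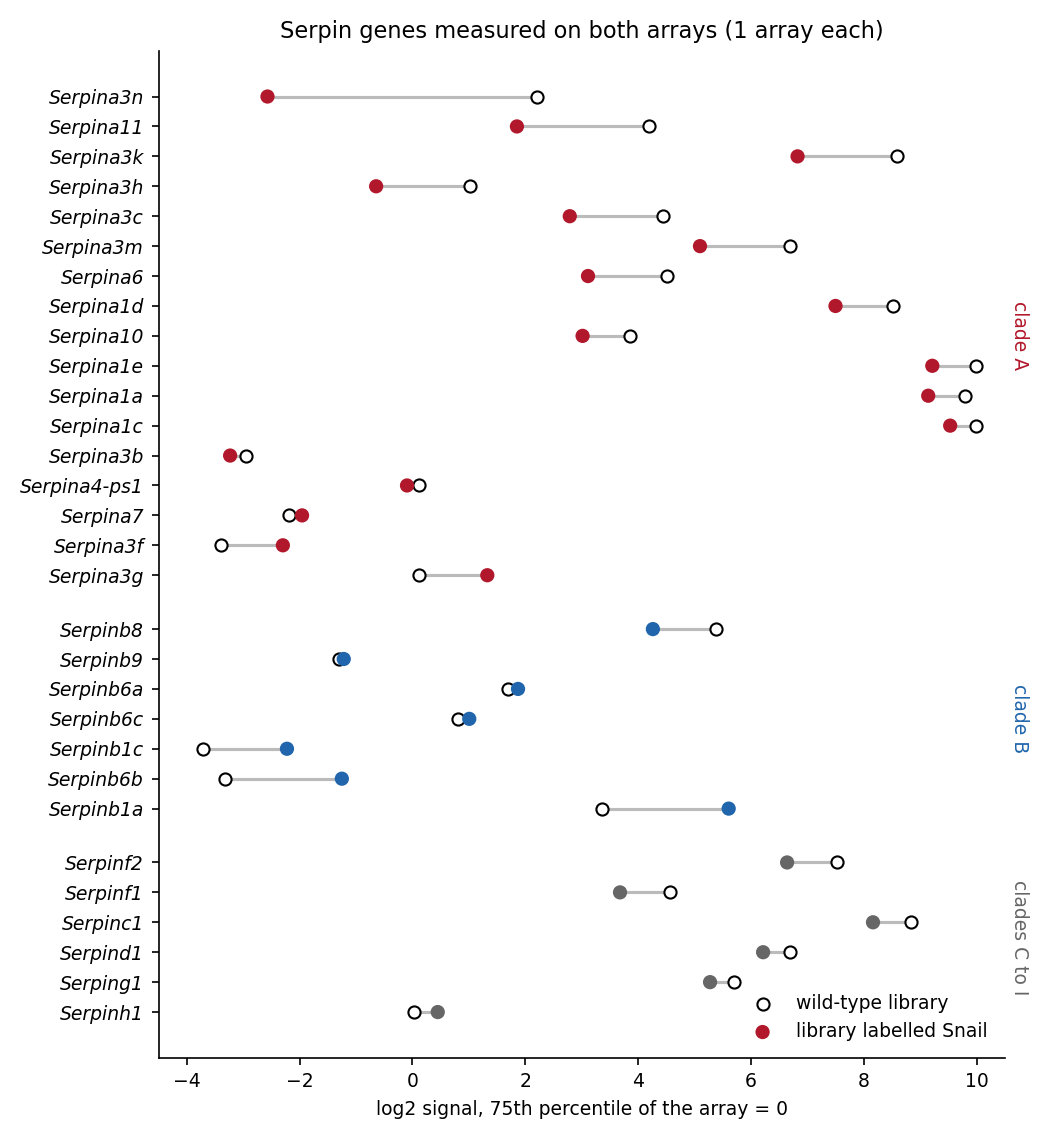
Log2 signal of the 30 serpin genes measured on both arrays, with each array's 75th percentile at 0; open circles are the wild-type library, filled circles the library labelled Snail, 1 array each, coloured by clade. Of the clade A genes, 14 of 17 lie further left in the library labelled Snail, and 6 of 7 clade B genes lie further right.

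The Serpina3 genes stood furthest apart among the subfamilies. These are mouse relatives of human alpha-1-antichymotrypsin, an inhibitor of neutrophil cathepsin G and mast cell chymase. Of 9 genes, 8 were measured, 5 lay at or past 2-fold lower and 2 at or past 2-fold higher; their median log2 difference was -1.63. Serpina3n, an inhibitor of granzyme B and leukocyte elastase in mice, read 1077 in the wild-type library and 50.9 in the library labelled Snail. This was a 27.5-fold lower level, a log2 difference of -4.78, and the 15th lowest of 15448 measured genes. The Snail-labelled signal was dim but well above background, and with normexp background the log2 difference was -3.65.

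Serpina3k, an abundant hepatocyte serpin that binds tissue kallikrein, read 89661 in the wild-type library and 34278 in the library labelled Snail, 3.40-fold lower. Serpina3m read 24163 and 10338 in the same order, 3.04-fold lower. Serpina3c read 5044 and 2088, 3.14-fold lower. Their log2 differences were -1.76, -1.60 and -1.65, a narrow range. Serpina3h read 472 and 193, 3.17-fold lower, on its first probe. Its second probe read 16.2, not well above background, in the wild-type library and 43.4 in the library labelled Snail, a log2 difference of 1.05 in the opposite direction. With both probes used and no filter on dim signals, the difference of Serpina3h was -0.31.

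Serpina3g and Serpina3f went the other way from their neighbours. Serpina3g, also known as Spi2A, a cytosolic inhibitor of cathepsins, read 253 in the wild-type library and 758 in the library labelled Snail, 2.31-fold higher. The accessions of the Serpina3g probe matched no RefSeq gene. Serpina3f read 22.1 and 61.5, 2.14-fold higher, both dim signals. With normexp background and its added offset of 50, the Serpina3f difference was 0.33 on the log2 scale. An offset of that size shrinks differences between dim signals by itself. This setting therefore cannot show whether the difference depends on the background correction. Serpina3b was dim on both arrays, at 30.1 and 32.2, with a log2 difference of -0.28. Serpina3a was not well above background in either library.

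The 9 Serpina3 genes lie within 297.2 kb, at the end of a 797.1 kb cluster of 21 clade A genes, chr12:104854887-105651977 in mm9. In chromosomal order the higher pair, Serpina3f and Serpina3g, are immediate neighbours. They sit between Serpina3c on one side and Serpina3h, Serpina3k, Serpina3m and Serpina3n on the other, all 5 at least 2-fold lower. Over the cluster, 16 genes were measured, of which 8 were lower and 2 higher by 2-fold or more.

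**Figure D2:**
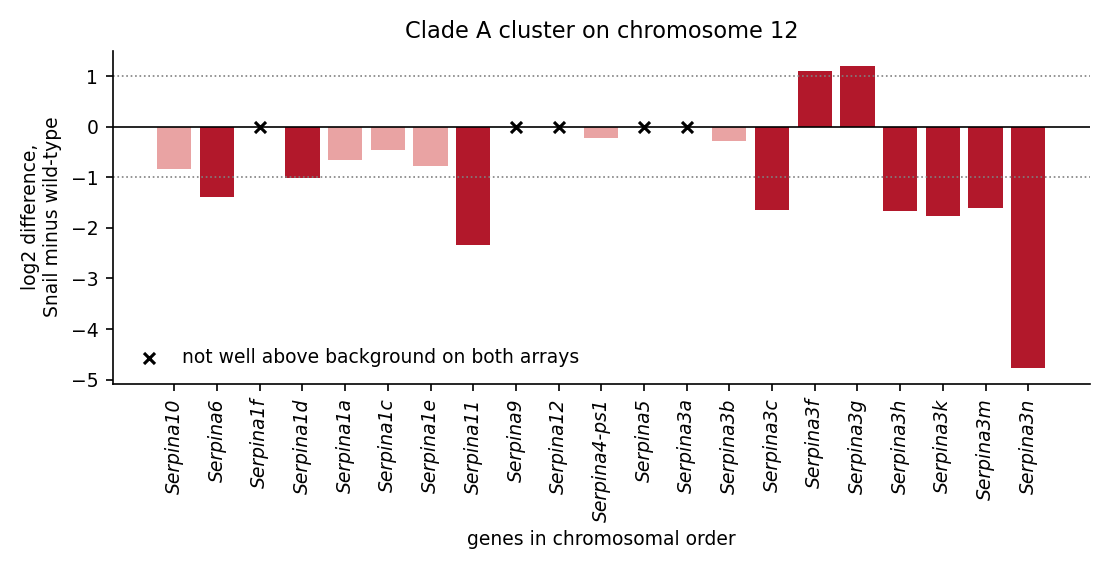
Log2 difference (Snail minus wild-type, 1 array each) of the 21 clade A genes on chromosome 12, evenly spaced in chromosomal order; dark bars are at least 2-fold apart, dotted lines mark 2-fold, and crosses are genes not well above background on both arrays. Serpina3f (2.14-fold) and Serpina3g (2.31-fold) stand above 0 between lower neighbours, and Serpina3n reaches -4.78.

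Promoters were compared because neighbouring copies differed in direction. RefSeq promoters of GRCm38.p6 were matched by symbol for 48 of the 59 genes, and the 250 bases before each start site were searched on both strands for CAGGTG, an E-box that Snail binds, GTTAAT, a motif known from promoters of liver genes, and TTCNNNGAA, a STAT site. In the serpin promoters no match overlapped a match of another motif, and a match is a description of the sequence only. Promoters were aligned with gaps, and identity is given over the paired bases. The promoters of Serpina3c and Serpina3n were 92.7% identical (229 of 247 bases), and the log2 differences of these genes were -1.65 and -4.78. In the sequences below, capitals mark motif matches.
Serpina3c, chr12:104153873-104154122, minus strand: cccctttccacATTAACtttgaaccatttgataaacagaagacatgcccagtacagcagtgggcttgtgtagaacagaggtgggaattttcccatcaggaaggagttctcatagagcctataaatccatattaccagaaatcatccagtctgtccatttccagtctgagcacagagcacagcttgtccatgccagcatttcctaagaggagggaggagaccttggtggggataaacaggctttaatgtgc
Serpina3n, chr12:104406458-104406707, plus strand: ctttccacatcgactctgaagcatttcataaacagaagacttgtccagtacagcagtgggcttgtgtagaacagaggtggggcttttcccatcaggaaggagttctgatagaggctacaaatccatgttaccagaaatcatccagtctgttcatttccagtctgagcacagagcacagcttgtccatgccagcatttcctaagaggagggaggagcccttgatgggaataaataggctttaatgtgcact
Serpina3c held GTTAAT on the reverse strand, at -239 from the start, and Serpina3n held none of the 3 motifs. Serpina3f and Serpina3g, the higher pair, each held a STAT site, at -121 and -33 from their starts. Their promoters were 82.9% identical over 152 paired bases, with 12 unpaired, and the STAT sites faced each other in that alignment.
Serpina3f, upstream of its 2 listed starts, chr12:104214294-104214543, plus strand: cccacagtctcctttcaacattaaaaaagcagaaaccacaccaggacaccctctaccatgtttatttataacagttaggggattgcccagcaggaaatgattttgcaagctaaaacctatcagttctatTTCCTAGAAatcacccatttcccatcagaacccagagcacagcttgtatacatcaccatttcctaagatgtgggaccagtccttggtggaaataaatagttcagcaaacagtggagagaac
Serpina3g, chr12:104235897-104236146, plus strand: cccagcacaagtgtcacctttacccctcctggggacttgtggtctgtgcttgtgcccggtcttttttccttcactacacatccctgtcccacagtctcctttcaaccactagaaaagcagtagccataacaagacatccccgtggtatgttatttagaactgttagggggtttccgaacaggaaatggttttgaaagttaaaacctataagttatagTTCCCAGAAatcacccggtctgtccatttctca
Serpina1a and Serpina1c, whose log2 differences were -0.65 and -0.45, had promoters that were 95.9% identical over 244 paired bases and held GTTAAT at -21 and -27 from the start.
Serpina1a, chr12:103863620-103863869, minus strand: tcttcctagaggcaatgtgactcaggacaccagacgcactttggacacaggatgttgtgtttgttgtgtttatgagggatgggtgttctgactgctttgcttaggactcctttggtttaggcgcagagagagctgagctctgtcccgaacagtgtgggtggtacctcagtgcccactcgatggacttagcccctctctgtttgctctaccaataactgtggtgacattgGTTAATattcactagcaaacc
Serpina1c, chr12:103904951-103905200, minus strand: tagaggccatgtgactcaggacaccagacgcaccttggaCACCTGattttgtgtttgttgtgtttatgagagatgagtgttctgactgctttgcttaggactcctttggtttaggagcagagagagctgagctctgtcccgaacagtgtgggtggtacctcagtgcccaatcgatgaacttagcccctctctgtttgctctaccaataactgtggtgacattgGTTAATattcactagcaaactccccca
Serpina1c also held CAGGTG, which appears above as its reverse complement, with its first base at -211 from the start.

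Counted over the family, the STAT site was in 7 of 48 serpin genes, against 7.02% of 32851 promoters of the same length. A serpin gene counted if any of its listed promoters held the motif, whereas the shares are of single promoters. The units therefore differ, which can raise the serpin counts: Serpinb1c, for example, held CAGGTG in 1 of its 2 promoters. No promoter sequence was matched for Serpinb1a among the 5 higher genes. Nor was one matched for Serpina3h, Serpina3k, Serpina3m and Serpina6 among the 9 lower genes, so the counts below leave these out. The STAT site was in 2 of 4 higher genes with a promoter sequence (Serpina3f and Serpina3g) and in 1 of 5 lower genes with one (Serpina11). GTTAAT was in 10 of 48 serpin genes, against 6.43% of all promoters. Those 10 included Serpina1a, Serpina1c, Serpina1d and Serpina1e, and 3 of the 5 lower genes (Serpina1d, Serpina3c and Serpinb8) but 0 of the 4 higher genes. CAGGTG was in 11 of 48 serpin genes, against 17.2% of all promoters. It was in 1 of the 4 higher genes searched (Serpinb1c) and in 0 of the 5 lower genes searched.

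The Serpina1 genes, which encode alpha-1-antitrypsin, the main plasma inhibitor of neutrophil elastase, were lower by smaller amounts. Serpina1d read 85016 in the wild-type library and 54647 in the library labelled Snail, 2.02-fold lower. Serpina1e read 237215 and 179494, with a log2 difference of -0.78. Serpina1a read 206361 and 170719, a difference of -0.65, and its 2 probes gave -0.87 and -0.43. Serpina1c read 235549 and 223568, a difference of -0.45. All 4 measured Serpina1 genes were lower, apart from Serpina1c under quantile normalization (0.02) and with the authors' value table (0.00). Serpina1d alone reached 2-fold, and under quantile normalization its difference was -0.64. Serpina1f was not well above background in either library.

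Among the other clade A genes, the hormone carrier and 2 liver serpins of the same cluster were lower. Serpina11, a liver serpin of poorly known function, read 4244 in the wild-type library and 1090 in the library labelled Snail, 5.05-fold lower. Its 2 probes gave -2.35 and -2.32. Serpina6, corticosteroid-binding globulin, which carries glucocorticoids in plasma, read 5288 and 2612, 2.63-fold lower. Its 2 probes, at separate positions, gave -1.43 and -1.36. The 2 probes of Serpina11 overlapped over 57 bases with 4 mismatches, so their closeness is not that of separate readings. Serpina10, the protein Z-dependent inhibitor of factor Xa, read 3378 and 2444, a log2 difference of -0.84. Serpina7, thyroxine-binding globulin, on the X chromosome, read 50.9 and 77.8, a difference of 0.24. The pseudogene Serpina4-ps1 read 254 and 283, a difference of -0.22. Serpina9, a serpin known from germinal centre B cells, was well above background only in the wild-type library, at 22.2 against 6.32, at least 2.24-fold lower in the library labelled Snail. In this class, well above background only in the wild-type library, were 1.45% of all genes. Serpina5, the protein C inhibitor, and Serpina12, vaspin, were not well above background on either array.

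The clade B genes of chromosome 13 lay on the other side of 0. All 6 measured genes of the 14 there were above 0, except Serpinb9 under normexp background correction, with a median log2 difference of 0.85, and 3 were at least 2-fold higher. Serpinb1a, an inhibitor of neutrophil elastase, cathepsin G and proteinase-3 that is abundant in neutrophils, read 2390 in the wild-type library and 14708 in the library labelled Snail. This was 4.74-fold higher, the 102nd highest of the 15448 measured genes. Serpinb6b read 23.2 and 127, 4.22-fold higher. Serpinb1c, a copy of Serpinb1a, read 17.8 and 64.7, 2.80-fold higher. The last pair were dim in the wild-type library, and with normexp background their log2 differences were 0.86 and 0.35 in place of 2.08 and 1.48, while that of Serpinb1a was 2.27.

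The remaining chromosome 13 genes differed little. Serpinb6a, an intracellular inhibitor of cathepsin G and trypsin-like proteases, read 753 in the wild-type library and 1105 in the library labelled Snail, a log2 difference of 0.18. Serpinb6c read 405 and 607, a difference of 0.21, with probes that resemble those of Serpinb6a as shown above. Serpinb9, the inhibitor of granzyme B that protects cytotoxic cells from their own granules, read 94.4 and 130, a difference of 0.08 that turned to -0.04 with normexp background.

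On chromosome 1, in contrast, 11 of 12 clade B genes were not well above background on either array. They included Serpinb2, the plasminogen activator inhibitor of macrophages, Serpinb5, maspin, and the squamous cell antigen relatives Serpinb3a to Serpinb3d. The exception was Serpinb8, an inhibitor of furin-like proteases, which read 9650 and 5796, 2.16-fold lower. Its only probe consists largely of TG repeats, and whether it reads Serpinb8 alone was not tested. The place of Serpinb8 among the measured and the lower genes shares that limit. With the authors' value table its difference was -0.93, short of 2-fold. Over the whole family, 26 of 59 genes were not well above background on either array, against 45.6% of all genes, and their 31 probes read at most 7.57 and 12.8 on the 2 arrays.

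Leukocyte markers were set beside the clade B values, since Serpinb1a, Serpinb6b and Serpinb9 are also expressed by leukocytes. Of 10 neutrophil markers, 5 were measured, 4 of them above 0 and 2 at least 2-fold higher, and 3 more (Cxcr2, Retnlg and Mpo) cleared the background on the Snail-labelled array alone. S100a8 read 55.3 and 285, a log2 difference of 1.99, and S100a9 read 293 and 1127, a difference of 1.57. The scaled signals of the measured neutrophil markers summed to 75.3 in the wild-type library and 79.9 in the library labelled Snail, sums that Csf3r (0.02) dominated. The granule genes Ltf and Ngp were not well above background on either array. Of 11 Kupffer cell and macrophage markers, 10 were measured and 9 lay above 0, with a median difference of 0.14, Marco (1049 and 3862) past 2-fold, and scaled sums of 69.9 and 83.9. The median was 0.23 for T and NK cell markers (6 measured of 9) and 0.52 for B and plasma cell markers (4 of 6). The part of leukocyte content in the clade B differences was not tested.

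Clades C to I hold the plasma inhibitors of coagulation, fibrinolysis and complement, and none of their 6 measured genes reached 2-fold. Serpinc1, antithrombin, the main inhibitor of thrombin and factor Xa, read 106446 in the wild-type library and 86626 in the library labelled Snail, a log2 difference of -0.67. Serpind1, heparin cofactor II, read 23968 and 22452, a difference of -0.47. Serpinf2, alpha-2-antiplasmin, the inhibitor of plasmin, read 42992 and 30151, a difference of -0.89. Serpinf1, the angiogenesis inhibitor PEDF, read 5503 and 3870, a difference of -0.88. Serping1, the inhibitor of C1r, C1s and plasma kallikrein, read 12158 and 11702, a difference of -0.43. These 5 secreted serpins were all lower by less than 2-fold, and under quantile normalization they lay between -0.72 and -0.18.

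In clade E, Serpine2, protease nexin 1, an inhibitor of thrombin and plasminogen activators, read 7.33, not well above background, in the wild-type library and 42.1 in the library labelled Snail, at least 2.35-fold higher. Its signal was dim, and 4.37% of all genes cleared the background on the Snail-labelled array alone. Serpine3, neuroserpin (Serpini1) and Serpini2 were not well above background on either array.

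Serpinh1, the collagen chaperone Hsp47, read 238 and 412, a log2 difference of 0.42. Of 18 genes of collagens and their modifying enzymes, 15 were measured, with a median difference of 0.20, and 1 was higher and 0 were lower by 2-fold or more. Col1a1 read 51.3 and 166, a difference of 1.32, and Col3a1 read 147 and 371, a difference of 0.95. Ppib, a peptidyl-prolyl isomerase of the collagen complex, was at -0.93. Of 10 stellate cell and fibroblast markers, 8 were measured, 2 above 0 and 6 below, with a median of -0.82 and scaled sums of 60.3 and 33.0. The 2 above 0 were Col1a1 and Col1a2 (0.20), which are also among the collagens counted above. The other measured markers all lay below 0. Des was not well above background in either library, and Acta2 was so only on the Snail-labelled array. Their part in the Serpinh1 and Serpine2 values was not tested.

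The brightness of a gene tracked its direction in the family. Of 17 serpins with a mean signal of at least 1000, 16 were below 0, with a median of -0.88, and 7 were at least 2-fold lower. Over all 4132 genes of that brightness the median was -0.10 and 7.48% were at least 2-fold lower. The 10 serpins with a mean signal of at least 10000 all lay below 0, except Serpina1c at 0.02 under quantile normalization and at 0.00 with the authors' value table. Their median was -0.73, where 1009 genes of the array had a median of -0.15 and 640 lay below 0. Of the 13 measured serpins under 1000, 9 were above 0, with a median of 0.21.

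The coagulation proteases that plasma serpins inhibit were lower as well. Of 14 coagulation and fibrinolysis proteases, 11 were measured, all 11 were below 0, and 5 reached 2-fold. The median was -0.97. Hpn lay nearest 0, at -0.23, and these genes were not followed under other scalings. Factor IX (F9) read 1798 in the wild-type library and 188 in the library labelled Snail, a log2 difference of -3.64. Factor XI (F11) was at -2.51, factor VII (F7) at -1.88 and prekallikrein (Klkb1), a target of C1 inhibitor, at -1.71. Thrombin's precursor F2 was at -0.89, F10 at -0.75 and plasminogen (Plg) at -0.93, beside -0.67 for antithrombin and -0.89 for alpha-2-antiplasmin. The 2 probes of F10 gave -1.18 and -0.33. The plasminogen activators Plat and Plau were not well above background on either array.

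Complement proteases differed less, with 8 measured of 9, 6 below 0, 2 of them by 2-fold or more, and a median of -0.61. Cfi was at -1.06, Masp2 at -1.03 and C1s, a target of Serping1, at -0.55. The 3 probes of Masp2 ranged from -1.30 to -0.55. Of 15 leukocyte serine and cysteine proteases, 7 were measured and 0 were at least 2-fold apart, with a median of -0.02. Elane, neutrophil elastase, the target of alpha-1-antitrypsin and Serpinb1a, read 209 and 291, a difference of 0.10. Ctsg, Prtn3 and Gzmb, targets of Serpina3, Serpinb1a and Serpinb9 proteins, were not well above background on either array.

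Most protease inhibitors of other folds were lower too. Of 20 such genes, 18 were measured, 14 were below 0, 7 were lower and 1 higher by 2-fold or more, and the median was -0.87. Itih4, a hyaluronan-associated plasma protein, read 23652 and 2642, a log2 difference of -3.54, and Wfdc2 was at -2.90. Spint2, an inhibitor of hepatocyte growth factor activator, was at -1.48, but its 2 probes gave -2.26 and -0.70. Spink3, a trypsin inhibitor, read 15.6 and 74.5, a difference of 1.88. Of 12 serpin cofactors and clearance receptors, 11 were measured, of which 3 were lower by 2-fold or more, and the median was -0.58. Vitronectin (Vtn) was at -0.58, and Lrp1, the receptor that clears serpin complexes, at 0.43. The heparan sulphate carriers Sdc4 (-2.02) and Sdc1 (-1.27) were lower, as was Proz (-1.27), the cofactor of Serpina10, which itself was at -0.84.

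**Figure D3:**
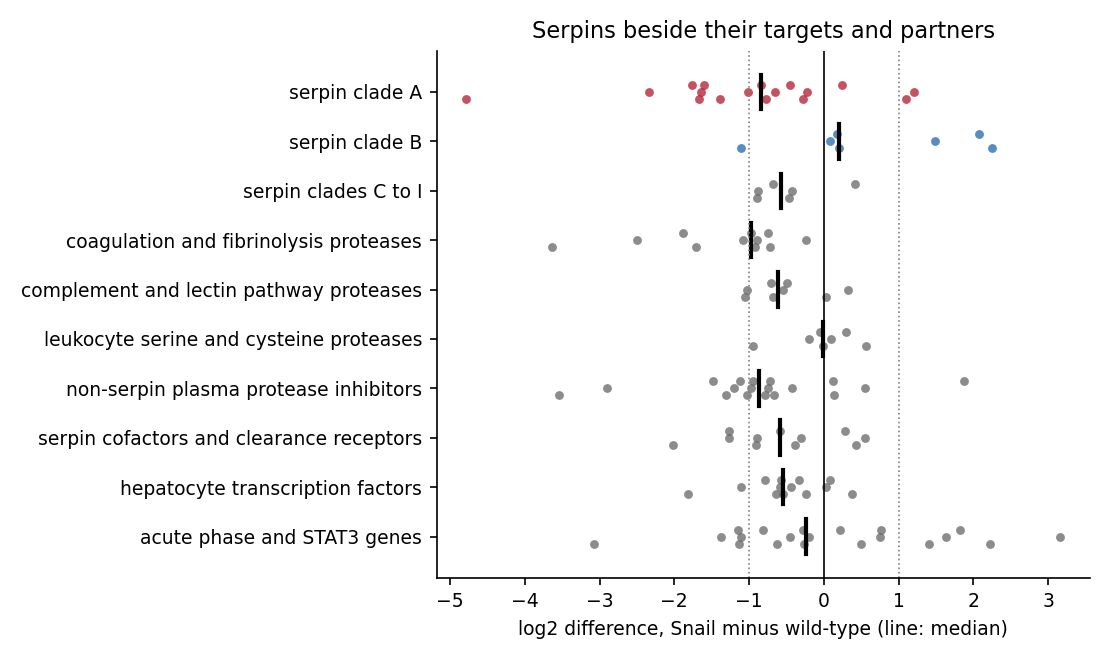
Log2 difference (Snail minus wild-type) of each gene measured on both arrays, for the serpin clades and for related gene lists; each dot is 1 gene, the black line is the median and dotted lines mark 2-fold. All 11 coagulation and fibrinolysis proteases lie below 0 (median -0.97), near clade A (-0.84), while leukocyte proteases centre on -0.02 and clade B on 0.21.

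Hepatocyte transcription factors, and acute phase and STAT3 genes, were mixed. Of 14 hepatocyte transcription factors, 13 were measured, of which 2 were lower by 2-fold or more, and the median was -0.55. Foxa3 was at -1.82 and Onecut1 at -1.10. Cebpa was at -0.78 and Hnf4a at -0.24. Among 20 acute phase and STAT3 genes, all measured, 5 were higher and 5 lower by 2-fold or more, and the median was -0.23. The serum amyloid gene Saa3 was at 2.23 and lipocalin-2 (Lcn2) at 3.16, whereas the leukaemia inhibitory factor receptor Lifr was at -3.07 and Stat3 at -0.27. Serpina3n and Serpina3g are both known as inflammation-responsive genes, and here they lay on opposite sides of 0, at -4.78 and 1.21.

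Carriers and substrates related to the non-inhibitory serpins were given alongside. Beside Serpina6 (-1.39) and Serpina7 (0.24), the other plasma carriers transthyretin (Ttr) and albumin (Alb) were at -0.94 and -0.63. Of 8 genes of hormone transport and response, 7 were measured, with 1 at least 2-fold lower, Thrsp at -1.59. Dio1, the deiodinase of thyroid hormone, read 1018 in the wild-type library and 15.5, not well above background, in the library labelled Snail. Angiotensinogen (Agt), a serpin by fold whose name lies outside the rule, read 3155 and 2845, a difference of -0.53. Of 11 genes of its pathway, 7 were measured, with Mme (1.41) and Ace (1.03) at least 2-fold higher and the receptor Agtr1a (-1.17) at least 2-fold lower.

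The 14 genes at least 2-fold apart were then followed across 9 other ways of processing. Their direction did not reverse in any setting that gave a value. Under normexp background 10 of the 14 were still at least 2-fold apart, and the 4 lost were Serpina1d, Serpina3f, Serpinb1c and Serpinb6b. Serpina1d and Serpinb8 were lost under quantile normalization and with the authors' value table. These 2 settings gave close values, with serpin medians of -0.27 and -0.26, and may not be separate checks. Serpina1d was also lost with the median difference set to 0 and with the brightest probe, and Serpina3h was lost without a filter on dim probes. Serpina3g, Serpina3c, Serpina3k, Serpina3m, Serpina6, Serpina11 and Serpinb1a were at least 2-fold apart in each of the 9 settings, and so was Serpina3n in each that gave it a value.

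**Figure D4:**
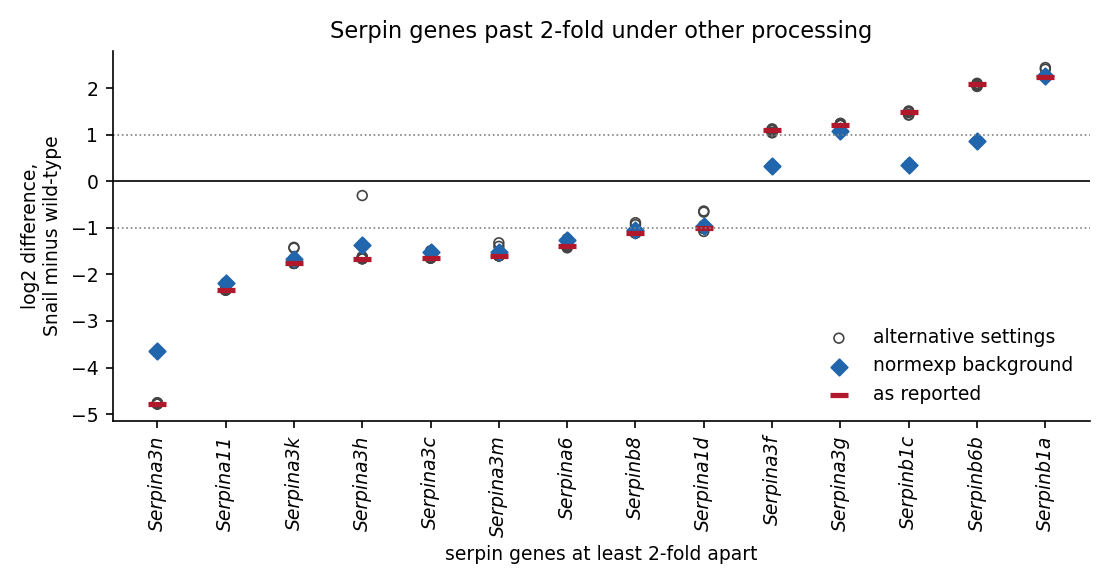
Log2 difference (Snail minus wild-type) of the 14 serpins at least 2-fold apart, under the reported processing and each alternative that gave a value; dotted lines mark 2-fold. The dim genes Serpina3f, Serpinb1c and Serpinb6b move to 0.33, 0.35 and 0.86 with normexp background, while Serpinb1a and Serpina11 move little.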

How the data were processed

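Liver RNA was measured on 1 wild-type and 1 Snail-labelled array. Spot intensities were deposited as Agilent Feature Extraction 9.5.1.1 output, per the submitters' processing notes; per the file headers, the processed intensity was background-subtracted and detrended within each array, in 1 colour. A table of normalized intensities was deposited as well, linear and in the scanner files' direction (correlation of log2 values 1.00 on both arrays). Its columns had equal medians of 17.3, and its normalization method is not stated.

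Here, log2 intensity was centred on each array's 75th percentile of non-control spots, spots marked as outliers on either array (287 in all) were left out, and spots of a probe, then probes of a gene well above background on both arrays, were averaged. Where 1 array was not well above background, "at least" marks a bound: the bright signal against the higher of the dim array's lowest well-above-background signal and the probe's own, both scaled. A gene at least 2-fold apart was counted. With 1 array per group no test was made, and precision is limited by the number of arrays. Members, lists of targets, partners and cell type markers, and the rule for naming were chosen with earlier results of these data known. All members could be named, and of each list the 4 genes with the largest difference and known targets of serpins. Symbols were matched to the RefSeq table for 59 of 59 genes; 3 probes listed accessions of several genes. The steps were checked on simulated data. Alternatives were normexp background (limma 3.58.1, offset 50), quantile normalization, a median difference set to 0, the authors' value table, no filter or a signal of at least 100, the brightest probe, names by accession, and only probes of 1 gene. Python 3.11.15, pandas 2.3.3 and R 4.3.3 were used. One member and 1 listed gene are not reported here.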

Additional observations from a re-analysis of the deposited data

How the results depend on the processing

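The count of serpins at least 2-fold higher was 5 as reported, 2 with normexp background and 2 with a signal of at least 100 on both arrays, where Serpina3f, Serpinb1c, Serpinb6b and the lower Serpina3n gave no value. The count at least 2-fold lower stayed between 7 and 9 in the 9 alternatives. The array's own counts were 613 higher and 979 lower as reported, 297 and 572 with normexp background, and 262 and 606 at a signal of at least 100. The serpin median of -0.56 was -0.26 with the authors' value table, -0.27 with quantile normalization, -0.46 with the brightest probe, -0.46 with normexp background, -0.47 with no filter, -0.78 at a signal of at least 100 and -0.65 without probes shared by several genes. The clade A median of -0.84 was -0.66, -0.64, -0.56, -1.01 and -0.96 with the value table, quantile normalization, no filter, a signal of at least 100 and without shared probes. The clade B median of 0.21 reversed to -0.47 with no filter, where undetected genes sit at each array's floor and the median of all genes was also -0.47; the other 8 alternatives left it between 0.19 and 0.25. Leaving out shared probes was added after the data had been seen. No paired analysis was possible because each group had 1 array. Normexp background moved 4 genes by over 1.5 times: Serpina3f to 0.33, Serpinb1c to 0.35, Serpinb6b to 0.86 and Serpina3n to -3.65. Each had a signal under 100 on at least 1 array, where the added offset of 50 shrinks a difference by itself.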

Other observations

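Genes that fold and export secreted serpins were mostly lower in the library labelled Snail, by small amounts. All 18 genes of endoplasmic reticulum quality control were measured, 15 were below 0, and the median log2 difference was -0.40, with 1 higher and 1 lower by 2-fold or more. Pdia6, a protein disulphide isomerase, read 3652 in the wild-type library and 2094 in the library labelled Snail, a difference of -1.18. Ddit3, the stress-induced transcription factor CHOP, read 48.0 and 130, a difference of 1.06. Lman1, a cargo receptor that carries alpha-1-antitrypsin to the Golgi, was at -0.63.

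Several Serpina genes differ by sex in mouse liver through growth hormone, and the labels gave no sex. As given above, the 4 Y-linked genes were not well above background on either array. Xist was measured on both arrays, with a log2 difference of 0.18. Of 10 growth hormone and STAT5 genes, all were measured, with a median difference of 0.11, Socs2 (-1.47) at least 2-fold lower, Ghr at -0.89 and Stat5b at 0.17. Of 13 male-predominant liver genes, 7 were measured and 4 of these were lower by 2-fold or more, while 4 cleared the background on the Snail-labelled array alone and 2 on the wild-type array alone. Cyp4a12b read 6.60, not well above background, in the wild-type library and 12034 in the library labelled Snail, at least 671-fold higher. Of 17 female-predominant genes, 16 were measured, of which 7 were lower and 1 higher by 2-fold or more. Cyp3a44 read 1779 in the wild-type library and 5.58, not well above background, in the library labelled Snail, at least 179-fold lower. Their part in the Serpina3 and Serpina6 values was not tested.

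All 8 endothelial markers were measured, with a median of 0.12 and Lyve1 (1.99) at least 2-fold higher. Cholangiocyte markers were well above background on both arrays for 2 of 8 genes, with Sox9 at 1.55, and Krt19, Krt7 and Epcam were not well above background on either array. The measured genes were 4 of 5 for erythroid, 2 of 9 for pancreatic acinar, 2 of 7 for squamous, 1 of 6 for mesothelial, 1 of 6 for adipocyte and 1 of 5 for platelet markers. Trp63, a squamous transcription factor, read 1907 in the wild-type library and 6262 in the library labelled Snail, a log2 difference of 1.34, while Krt5, Krt14 and Krt15 were not well above background on either array.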
